A study of Homo sapiens with 18 samples.

Results

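The genes described are 6 that encode enzymes of pyrimidine nucleoside and base breakdown (DPYD, DPYS, UPB1, UPP1, TYMP and CDA), together with NNMT, which encodes a nicotinamide methyltransferase. They were taken by symbol from the deposited expression table, and all 7 were found among its 19849 genes, each measured by 1 probe set. The table holds 18 Affymetrix U133 Plus 2.0 arrays from 3 human non-small cell lung cancer lines, A549, HCC827 and NCI-H358. The question was how each line differed before and after epithelial-mesenchymal transition (EMT). Parental cells (3 arrays per line) were compared with mesenchymal derivatives (3 arrays per line), which the labels describe as grown with 2 ng/ml TGFβ for 3 weeks. The labels state that TGFβ was absent from the medium from the day before lysis, so the mesenchymal arrays describe cells about a day after its removal. The paper's methods give treatment times that differed between the lines. Each line is a single established culture, so the 3 arrays of a group are not separate patients. A legend of the paper describes the 3 as biological samples made side by side. The labels carry no replicate numbers, and those used below follow the order of the samples within a group. The p-values below set a difference against the spread between such arrays, pooled per gene over all 6 groups.

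Uracil and thymine are degraded in 3 steps. DPYD (dihydropyrimidine dehydrogenase), the rate-limiting enzyme and the one that inactivates the drug 5-fluorouracil, reduces the ring, DPYS (dihydropyrimidinase) opens it and UPB1 (beta-ureidopropionase) releases beta-alanine or beta-aminoisobutyrate. The bases reach this pathway from nucleosides: CDA (cytidine deaminase) turns cytidine and deoxycytidine into uridine and deoxyuridine, and the phosphorylases UPP1 and TYMP split uridine and thymidine into base and sugar phosphate. NNMT stands outside this pathway, since it transfers a methyl group from S-adenosylmethionine to nicotinamide and so draws on both the methyl donor pool and the precursor of NAD.

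The state labels were first set against markers. The epithelial genes CDH1, EPCAM, KRT8 and KRT18 were lower in mesenchymal cells of each line (4 of 4) and the mesenchymal genes VIM, CDH2, FN1 and ZEB1 were higher (4 of 4). In A549, HCC827 and NCI-H358 the log2 difference was -5.81, -2.95 and -3.94 for CDH1 and 0.79, 2.03 and 2.31 for VIM. Array medians lay between 6.31 and 6.47. The SD of log2 differences between arrays of a group was 0.163 to 0.282, against 0.719 to 0.896 between the states of a line. As a gauge of the low end of the scale, 13 genes specific to other tissues had group means of 2.78 to 6.21. All VIM group means but that of mesenchymal A549 (6.37) lay within this range, as did CDH1 in mesenchymal A549 (3.51). The VIM differences and the mesenchymal end of the A549 CDH1 difference therefore rest on low values. CDH1 stayed above the range in both states of HCC827 and NCI-H358 (lowest means 10.11 and 8.67). Also within the range were parental FN1 in each line (5.28, 4.76 and 4.86) and parental CDH2 in HCC827 (4.94). So were parental ZEB1 in HCC827 (6.02) and NCI-H358 (6.13), and EPCAM in mesenchymal A549 (4.57). The 8 leukocyte and endothelial markers had group means of 2.83 to 5.76, and their summed level was 35.1 to 38.1 on all arrays. Of these 8, CD14 fell in A549 (log2 difference of -1.36) and PECAM1 rose in HCC827 (0.41), and their part in the results below was not tested.

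A gene is said to have risen or fallen where its log2 difference between mesenchymal and parental cells had a Benjamini-Hochberg adjusted p below 0.05 in limma over all genes. In A549, 1 member rose and 2 fell, where 43.4% of all genes passed (16.6% higher and 26.8% lower). In HCC827, 0 rose and 5 fell, where 45.8% of all genes passed (20.8% higher and 25% lower). NCI-H358 had 2 members that rose and 3 that fell, where 41.4% of all genes passed (21.5% higher and 19.8% lower). The median log2 difference of the 7 members was -0.23, -0.27 and 0.06 in the 3 lines, and that of all genes was -0.021, 0.0051 and 0.015. UPP1 alone among the 7 fell in all 3 lines, which 6.14% of all genes did. NNMT alone passed in opposite directions in different lines, which 15.7% of all genes did. No member met in any line the stricter rule, the paper's cutoffs of an adjusted p below 1e-05 and a fold above 5. It was met by 1.9%, 2.95% and 2.17% of all genes, in the order given. The paper picked metabolism-associated genes that were consistent in all 3 lines, while the rule is applied here to each line alone. The state groups of a line did not overlap for 6, 5 and 6 members, in the same order of lines, against 52.4%, 51.2% and 51.6% of all genes.

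**Figure D1:**
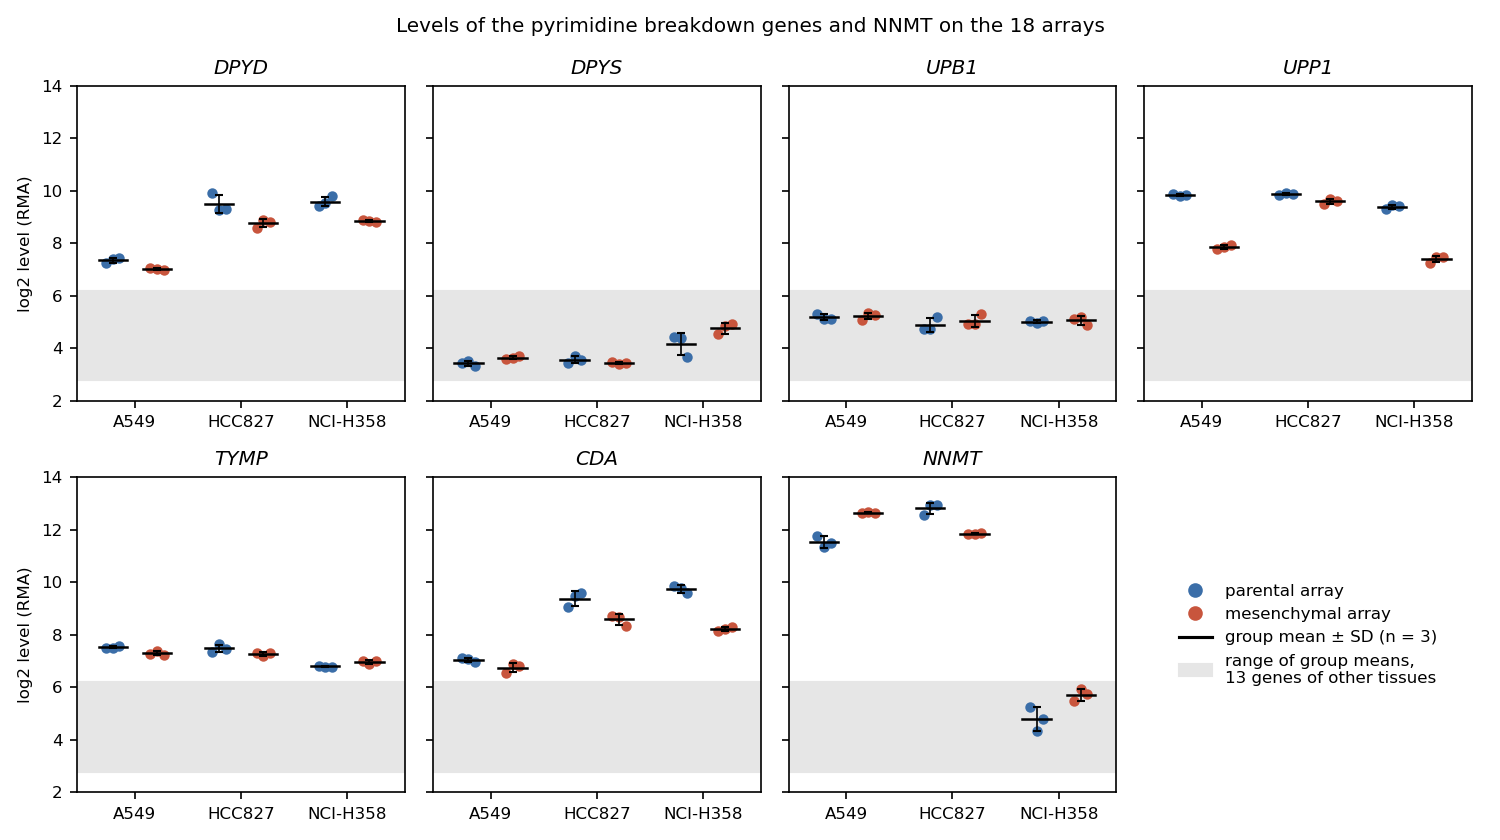
Levels of the 7 genes on the log2 scale (vertical axis) in each of the 18 arrays, by cell line and state. Points are single arrays and bars are group means (n = 3). NNMT spans the widest range, from 4.81 in parental NCI-H358 to 12.83 in parental HCC827, and UPB1 the narrowest.

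The plot of levels by array shows how unequally the members vary. The highest and lowest of the 6 group means lay 8.02 apart on the log2 scale for NNMT, 3.00 for CDA, 2.55 for DPYD, 2.46 for UPP1, 1.34 for DPYS, 0.73 for TYMP and 0.34 for UPB1. Levels are compared within a gene, since probe sets differ in brightness. The 1 exception is the range of the 13 genes of other tissues, which for the same reason is only a rough gauge of low values. In bulk RNA a change in every cell and a change in the share of cells that make a transcript cannot be told apart.

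Promoter windows of the RefSeq table (GRCh38.p14) were used for 5 of the 7 genes. DPYS was left out when the windows were selected, so nothing is said here of its promoter. No window of NNMT was available. The 250 bases before a transcription start are printed for CDA and UPP1, the breakdown genes with the largest falls, and for DPYD, the first enzyme of base reduction. Capitals mark CACCTG, an E-box of the kind bound by ZEB and SNAIL repressors, and CAGACA, a SMAD-binding element, each searched on both strands (reverse CAGGTG and TGTCTG).
CDA, chr1:20588847-20589096, plus strand: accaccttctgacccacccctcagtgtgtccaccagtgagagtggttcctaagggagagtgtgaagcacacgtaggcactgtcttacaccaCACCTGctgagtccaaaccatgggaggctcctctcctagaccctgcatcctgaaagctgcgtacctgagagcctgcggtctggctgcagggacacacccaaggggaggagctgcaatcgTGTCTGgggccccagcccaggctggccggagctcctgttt
UPP1, chr7:48089015-48089264, plus strand: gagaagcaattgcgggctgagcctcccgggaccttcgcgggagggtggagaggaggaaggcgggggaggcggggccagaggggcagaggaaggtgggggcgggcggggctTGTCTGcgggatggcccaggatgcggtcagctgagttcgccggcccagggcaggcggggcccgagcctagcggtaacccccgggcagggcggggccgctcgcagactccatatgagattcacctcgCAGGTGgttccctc
DPYD, chr1:97921035-97921284, minus strand: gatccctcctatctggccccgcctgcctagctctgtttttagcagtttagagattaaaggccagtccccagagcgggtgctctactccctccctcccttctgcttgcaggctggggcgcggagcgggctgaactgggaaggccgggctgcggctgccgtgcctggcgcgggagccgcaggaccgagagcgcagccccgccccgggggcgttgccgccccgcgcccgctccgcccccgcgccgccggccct
CDA and this UPP1 window each hold 1 CACCTG and 1 CAGACA, and the DPYD window holds neither. Of the windows not printed, that of UPB1 holds 1 CAGACA. The UPP1 window chr7:48089004-48089253, which overlaps the printed one, also holds 1 CAGACA, and a CACCTG match at -3 runs across its start. Those of TYMP, of another DPYD start and of the UPP1 window chr7:48088454-48088703 hold neither. Over 35116 promoter windows of the table, each with a further 50 bases after the start, CACCTG occurs in 20.6% and CAGACA in 16.9%. The UPP1 window chr7:48088454-48088703 holds an AP-1 site (TGACTCA or TGAGTCA), which occurs in 4.95% of windows. G and C make up 60.4% of the CDA window, 71.6% of the UPP1 window and 72.4% of the DPYD window. A match of letters is not evidence of binding.

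DPYD (Entrez 1806) fell in mesenchymal HCC827 and NCI-H358 cells to 60.1% and 60.2% of parental. In A549, parental arrays read 7.26, 7.39 and 7.43 and mesenchymal arrays 7.07, 7.04 and 7.002 on the log2 scale. In HCC827 they read 9.91, 9.29 and 9.32 against 8.60, 8.88 and 8.83. In NCI-H358 they read 9.44, 9.55 and 9.79 against 8.91, 8.86 and 8.82. All mesenchymal arrays lay below all parental arrays of the same line, and parental HCC827 replicate 1 stood above its other replicates. HCC827 had a log2 difference of -0.74 (SE 0.133, adjusted p = 0.000183), and that of NCI-H358 was -0.73 (SE 0.133, adjusted p = 0.000231). In A549 it was -0.32 (SE 0.133), and the adjusted p of 0.0633 did not pass. Without parental HCC827 replicate 1, which widens the shared spread, the same A549 difference had an adjusted p of 0.00792. HCC827 and NCI-H358 differed in the change by 0.0039 (95% interval -0.40 to 0.40, adjusted p = 0.992). The change in A549 was smaller than in HCC827 by 0.41, which did not pass (adjusted p = 0.0911), nor did the like difference from NCI-H358 (adjusted p = 0.0935). The former passed without parental HCC827 replicate 2 (-0.52, adjusted p = 0.0365) or replicate 3 (-0.51, adjusted p = 0.0479), and the latter without replicate 1 (adjusted p = 0.0148).

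For DPYD, A549 stood further from the other lines than the states of any line stood from each other. Parental HCC827 exceeded parental A549 by 2.15 (4.42-fold, adjusted p = 2.73e-10), where 57.1% of all genes passed between these groups. Parental NCI-H358 exceeded parental A549 by 2.23 (4.70-fold, adjusted p = 1.35e-10), where 57.9% of all genes passed. From high to low the groups ran NCI-H358 parental, HCC827 parental, NCI-H358 mesenchymal, HCC827 mesenchymal, A549 parental and A549 mesenchymal. The 2 parental groups at the top, the 2 mesenchymal groups below them, and the A549 pair did not differ beyond their spread (adjusted p = 0.632, 0.621 and 0.0633).

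DPYS and UPB1, the later enzymes of base breakdown, read within the range of the 13 genes of other tissues in all 6 groups. DPYS (Entrez 1807) read 4.45, 4.38 and 3.68 in parental and 4.54, 4.84 and 4.93 in mesenchymal NCI-H358. These groups did not overlap, parental replicate 3 was the lowest, and the log2 difference was 0.60 (SE 0.152, adjusted p = 0.00396). Without parental replicate 3 it was 0.35 (adjusted p = 0.0134). Elsewhere its arrays ranged from 3.32 to 3.70, and the differences of 0.22 in A549 (adjusted p = 0.275) and -0.13 in HCC827 (adjusted p = 0.559) did not pass. The NCI-H358 change exceeded that of HCC827 by 0.72 (adjusted p = 0.013), and 37.9% of all genes differed between these lines. Without parental NCI-H358 replicate 3 this difference was 0.48 (adjusted p = 0.0136). NCI-H358 mesenchymal cells stood above NCI-H358 parental cells, and these stood above mesenchymal A549 (adjusted p = 0.00661), where 61.1% of all genes passed. The next 4 groups in order did not differ from their neighbours beyond the spread.

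UPB1 (Entrez 51733) showed no difference between the states of a line that passed. Its arrays read 4.72 to 5.33 over all 6 groups, and parental and mesenchymal arrays overlapped in each line. In A549 the log2 difference was 0.04 (SE 0.134, adjusted p = 0.833). HCC827 gave 0.16 (adjusted p = 0.374) and NCI-H358 gave 0.06 (adjusted p = 0.804). Without parental HCC827 replicate 3 the HCC827 difference was 0.32 (adjusted p = 0.0493). No pair of neighbours in the order of its 6 group means differed beyond the spread. Of all 15 pairs of groups, only parental HCC827 against mesenchymal A549 passed (-0.34, adjusted p = 0.0359), where 62.7% of all genes did.

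UPP1, which releases uracil from uridine, had the largest falls of the 7 genes. UPP1 (Entrez 7378) read 9.87, 9.80 and 9.84 in parental and 7.78, 7.87 and 7.94 in mesenchymal A549. NCI-H358 arrays read 9.30, 9.45 and 9.44 against 7.27, 7.49 and 7.47, a like shift. HCC827 arrays read 9.84, 9.91 and 9.87 against 9.50, 9.68 and 9.63. The groups of each line were well apart in A549 and NCI-H358 and close but not overlapping in HCC827. UPP1 fell by 1.97 on the log2 scale in A549 (3.92-fold, SE 0.0731, adjusted p = 7.83e-13), fell by 1.98 in NCI-H358 (3.96-fold, adjusted p = 8.19e-13) and fell by 0.27 in HCC827 (1.21-fold, adjusted p = 0.0051). Among all genes these changes lay at percentile 1.07 in A549 and 1.78 in NCI-H358.

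The fall of UPP1 differed between lines. It was smaller in HCC827 than in A549 by 1.70 (95% interval 1.48 to 1.92, adjusted p = 8.13e-10), where 42.2% of all genes differed between these lines. It was larger in NCI-H358 than in HCC827 by 1.71 (adjusted p = 1.16e-09). NCI-H358 and A549 differed by -0.02 (95% interval -0.23 to 0.20, adjusted p = 0.93), where 42.8% of all genes differed. In order, HCC827 parental and A549 parental did not differ beyond their spread (adjusted p = 0.651). HCC827 mesenchymal cells came next, above NCI-H358 parental cells by 0.21 (adjusted p = 0.0232), where 55.7% of all genes passed. A step of 1.53 then separated NCI-H358 parental from A549 mesenchymal cells (adjusted p = 5.67e-12), and NCI-H358 mesenchymal cells were the lowest.

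TYMP, thymidine phosphorylase, moved little. TYMP (Entrez 1890) read 7.52, 7.51 and 7.57 in parental and 7.28, 7.38 and 7.23 in mesenchymal A549. In HCC827 it read 7.35, 7.64 and 7.46 against 7.32, 7.20 and 7.31, and in NCI-H358 6.82, 6.80 and 6.78 against 7.01, 6.88 and 6.99. Mesenchymal arrays were lower in A549 and HCC827 and higher in NCI-H358, without overlap. TYMP fell by 0.23 in A549 (SE 0.0726, adjusted p = 0.0156) and by 0.21 in HCC827 (adjusted p = 0.0245), and the NCI-H358 difference of 0.16 did not pass (adjusted p = 0.0948). The A549 call was lost without parental replicate 3 (-0.21, adjusted p = 0.051) or mesenchymal replicate 3 (-0.20, adjusted p = 0.0677) of that line. The HCC827 call was lost without parental replicate 2 (-0.13, adjusted p = 0.154) or mesenchymal replicate 2 (-0.17, adjusted p = 0.105). With arrays centred on their median both falls missed the threshold (-0.16 and -0.15) and the NCI-H358 difference passed (0.20, adjusted p = 0.0426).

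The TYMP change in NCI-H358 differed from that in A549 by 0.39 (adjusted p = 0.00507) and from that in HCC827 by 0.37 (adjusted p = 0.00835). HCC827 and A549 differed by 0.02 (95% interval -0.20 to 0.24, adjusted p = 0.901). The gene SCO2 overlaps TYMP in the RefSeq table, so the part of SCO2 transcripts in this signal cannot be told apart. Its levels ran A549 parental, HCC827 parental, A549 mesenchymal, HCC827 mesenchymal, NCI-H358 mesenchymal and NCI-H358 parental from high to low. The first pair, the middle pair and the last pair did not differ beyond their spread (adjusted p = 0.622, 0.794 and 0.0948).

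CDA, which also inactivates cytidine analogue drugs such as gemcitabine, fell in HCC827 and NCI-H358. CDA (Entrez 978) read 9.88, 9.78 and 9.61 in parental and 8.14, 8.24 and 8.32 in mesenchymal NCI-H358. HCC827 arrays read 9.07, 9.47 and 9.61 against 8.74, 8.70 and 8.34, and A549 arrays 7.11, 7.09 and 6.97 against 6.55, 6.90 and 6.81. Mesenchymal arrays were the lower in each line and did not overlap the parental arrays, with the widest gap in NCI-H358. CDA fell by 1.52 in NCI-H358 (2.87-fold, SE 0.134, adjusted p = 5.9e-08) and by 0.79 in HCC827 (1.73-fold, adjusted p = 9.38e-05). The A549 difference of -0.30 did not pass (adjusted p = 0.0811), but did without parental HCC827 replicate 1 (adjusted p = 0.0387).

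CDA was the only one of the 7 genes whose change differed in each of the 3 pairs of lines, which 14.3% of all genes did. NCI-H358 exceeded A549 in the fall by 1.22 (95% interval of the difference -1.62 to -0.82, adjusted p = 5.44e-05) and HCC827 by 0.73 (adjusted p = 0.0054). HCC827 exceeded A549 by 0.49 (adjusted p = 0.0481), a call that leaving out single arrays ended in 13 of 18 fits, with adjusted p up to 0.134 without mesenchymal HCC827 replicate 3. Parental NCI-H358 stood 0.37 above parental HCC827 (adjusted p = 0.0275), where 52.6% of all genes passed, and mesenchymal NCI-H358 0.36 below mesenchymal HCC827 (adjusted p = 0.033), where also 52.6% passed. The order of these lines thus turned between the states. Parental A549 was 1.18 below mesenchymal NCI-H358 (adjusted p = 6.13e-07), where 58.6% of all genes passed, and the pair of A549 groups at the bottom did not differ beyond the spread.

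NNMT (Entrez 4837) moved in opposite directions in different lines. Parental A549 read 11.78, 11.36 and 11.49 and mesenchymal A549 12.66, 12.67 and 12.66. HCC827 read 12.58, 12.94 and 12.97 in parental and 11.84, 11.84 and 11.89 in mesenchymal arrays. NCI-H358 read 5.27, 4.35 and 4.80 against 5.48, 5.92 and 5.77. Mesenchymal arrays were above in A549 and NCI-H358 and below in HCC827, with no overlap in any line, and parental NCI-H358 had the widest spread (SD 0.457). NNMT rose by 1.12 in A549 (2.17-fold, SE 0.177, adjusted p = 5.82e-05) and by 0.92 in NCI-H358 (adjusted p = 0.000403). It fell by 0.97 in HCC827 (1.96-fold, adjusted p = 0.000194). Both NCI-H358 groups lay within the range of the 13 genes of other tissues, above 8 of them in parental and 11 in mesenchymal cells. With any single array left out the 3 calls passed, with adjusted p up to 0.0033 for NCI-H358.

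The reversal in HCC827 was larger than the spread. Its NNMT change differed from that of A549 by -2.09 (95% interval -2.62 to -1.56, adjusted p = 3.06e-06), and the NCI-H358 change exceeded it by 1.89 (adjusted p = 1.22e-05). NCI-H358 and A549 differed by -0.20 (95% interval -0.74 to 0.33, adjusted p = 0.568). Parental HCC827 was 1.28 above parental A549 (adjusted p = 6.72e-06), and mesenchymal HCC827 was 0.81 below mesenchymal A549 (adjusted p = 0.000809), where 56.6% of all genes passed. In order, HCC827 parental and A549 mesenchymal cells did not differ beyond their spread (adjusted p = 0.443), nor did HCC827 mesenchymal and A549 parental cells (adjusted p = 0.151). Mesenchymal NCI-H358 lay 5.82 below parental A549, which is more than any change of NNMT between the states of a line.

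**Figure D2:**
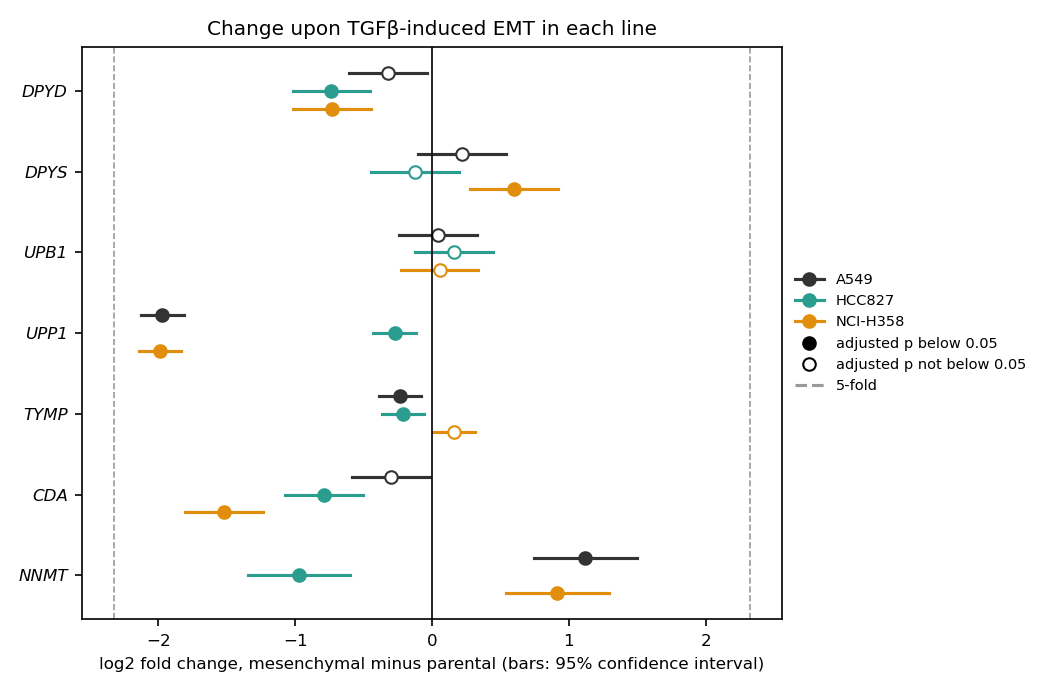
Log2 difference between mesenchymal and parental cells for each gene and line, with 95% intervals from the limma fit (n = 3 arrays per group). Values above 0 are higher in mesenchymal cells. UPP1 is at -1.97, -0.27 and -1.98 in A549, HCC827 and NCI-H358, and NNMT lies on both sides of 0.

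The plot of changes sets the 21 differences side by side. Of the 21 pairs of lines tested over the 7 genes, 10 differed in the change, and these fell on 5 genes (DPYS, UPP1, TYMP, CDA and NNMT). Among all genes, 60.2% differed in at least 1 pair, so the share of members is near the background.

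The genes with the most similar pattern to a member over the 18 arrays were taken for the 4 members that spanned more than 2 on the log2 scale. Since the arrays fall into 6 groups, Pearson's r is a description here. UPP1 was closest to GPR39 (r = 0.995), LURAP1L (0.969) and PDLIM1 (0.967). CDA was closest to LAMB3 (0.982), SAMD9L (0.978) and IFIT3 (0.975), and DPYD to IFITM1 (0.984), GUCY1B3 (0.983) and PSMB8 (0.981). IFITM1, PSMB8, SAMD9L and IFIT3 are known as interferon-inducible genes, and LAMB3 encodes an epithelial laminin chain. NNMT was closest to PTGFRN (0.991), C12orf75 (0.991) and RIMKLB (0.990), which follow the gap between NCI-H358 and the other lines.

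Beyond the members, 83 genes of 11 lists of the surrounding pathways were in the table. A549 had 15 that rose and 34 that fell, HCC827 had 20 and 30, and NCI-H358 had 19 and 31, with median log2 differences of -0.13, -0.032 and -0.064. The stricter rule was met by 2 genes in A549, 2 in NCI-H358 and 0 in HCC827. ABAT, the transaminase that degrades beta-alanine downstream of UPB1, rose from 3.30 to 7.46 in A549 (log2 difference of 4.16, adjusted p = 1.33e-12). It also rose in HCC827 (log2 difference of 1.47) and NCI-H358 (1.32). NT5E, the surface enzyme CD73 that splits nucleoside monophosphates, rose from 9.20 to 11.64 in A549 (5.41-fold, adjusted p = 2.07e-12) and by 0.52 in HCC827, and its NCI-H358 difference was -0.16 (adjusted p = 0.207). CMPK2, a mitochondrial UMP-CMP kinase induced by interferon, fell from 9.44 to 5.30 in NCI-H358 (adjusted p = 7.06e-12), rose by 0.61 in A549 and fell by 0.72 in HCC827. Without parental A549 replicate 1 the A549 difference of CMPK2 was 0.51 (adjusted p = 0.0569), and without parental HCC827 replicate 1 its HCC827 difference was -0.45 (adjusted p = 0.0158). NMNAT2, an NAD synthesis enzyme, fell from 8.47 to 5.07 in NCI-H358 (adjusted p = 5.91e-11) and by 1.69 in HCC827, and rose by 0.83 in A549. For ABAT, CMPK2 and NMNAT2 at least 1 state of each line lay within the range of the 13 genes of other tissues, so no fold is given.

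The lists on the pyrimidine side had the following counts. Of 5 genes of pyrimidine synthesis, A549 had 1 that rose and 4 that fell, HCC827 had 2 and 2, and NCI-H358 had 3 and 1. Chosen after its values were seen, the CTP synthase gene CTPS1 rose in all 3 lines (0.50, 1.05 and 0.43) while its paralogue CTPS2 fell (-0.48, -0.74 and -1.01). Of 10 salvage kinases and deaminases, 2 rose and 1 fell, 4 rose and 2 fell, and 3 rose and 4 fell in the same order of lines. Of 8 genes of deoxynucleotide and thymidylate supply, the like counts were 1 and 7, 4 and 1, and 2 and 6. The 8 nucleotidases gave 1 and 5, 2 and 3, and 1 and 2. The 7 nucleoside transporters gave 1 and 2, 1 and 3, and 0 and 3, with SLC29A2 (the equilibrative transporter ENT2, also chosen after its values were seen) lower in each line (-1.14, -1.26 and -0.82). Of 5 other enzymes of base and beta-alanine breakdown, 1 rose in each line (ABAT) and 1, 3 and 1 fell. The UPP1 paralogue UPP2 read 2.72 to 3.12 in all groups, at the low end of the scale, and fell in HCC827 by 0.40 (adjusted p = 0.013). The 5 dihydropyrimidinase-like genes, relatives of DPYS without its activity, gave 3 and 1, 1 and 1, and 2 and 1. Among these, and chosen after values were seen, DPYSL2 fell in each line (-1.16, -0.76 and -2.22) and DPYSL3 rose (0.53, 1.29 and 1.14).

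On the NNMT side, 5 of 11 genes of nicotinamide and NAD synthesis rose and 3 fell in A549. HCC827 had 0 that rose and 6 that fell, and NCI-H358 had 2 and 5. NAMPT, which returns nicotinamide to NAD and so uses the substrate of NNMT, was named after its values were seen. NAMPT rose by 2.08 in A549 and fell in HCC827 (-1.49) and NCI-H358 (-0.52), so it shared the direction of NNMT in A549 and HCC827 and opposed it in NCI-H358. Of 9 measured genes of NAD consumption and nicotinamide oxidation, 0 rose and 7 fell in A549, and the like counts were 2 and 3 for HCC827 and 2 and 2 for NCI-H358. AOX1, which oxidises the methylnicotinamide that NNMT makes, and which was also chosen after its values were seen, fell in A549 (-1.14) and HCC827 (-1.51), and its NCI-H358 difference was 0.40 (adjusted p = 0.121). Of 13 genes of methyl donor supply, 0 rose and 3 fell in A549, and 3 rose and 6 fell in HCC827 and in NCI-H358. AHCY, which clears the S-adenosylhomocysteine left by methyl transfer and was chosen in the same way, fell in each line (-0.40, -0.62 and -0.84). The related methyltransferase genes PNMT and INMT did not pass in any line (0 of 2).

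**Figure D3:**
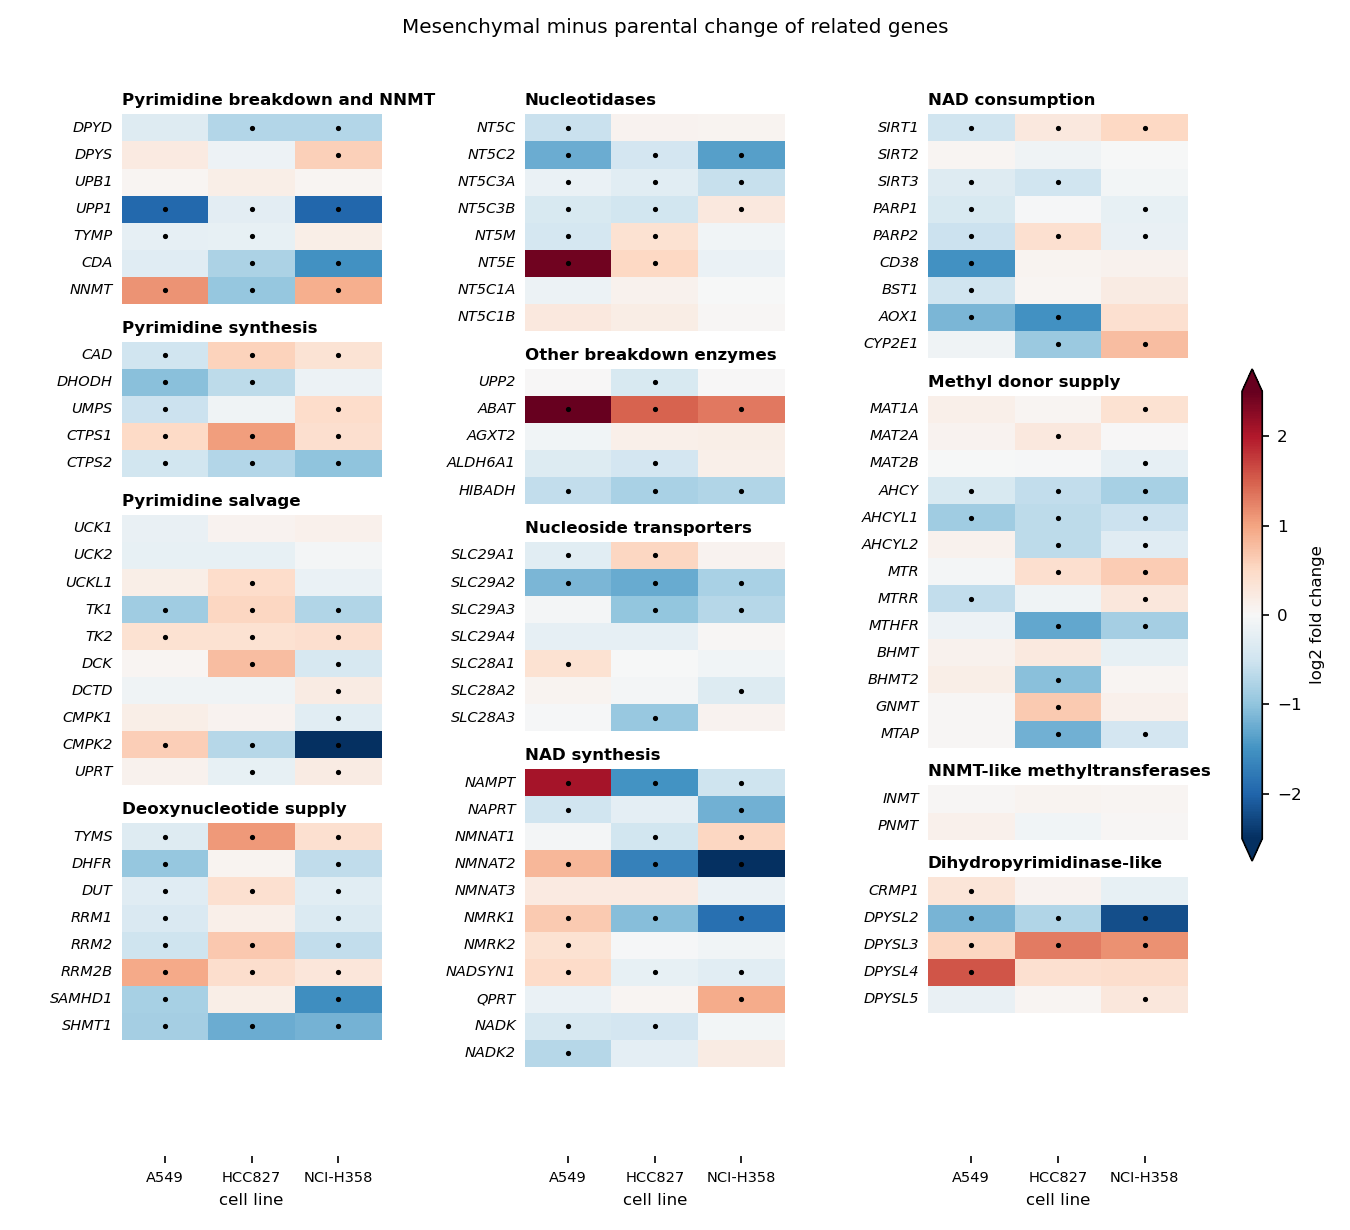
Log2 difference between mesenchymal and parental cells (colour, limited to the range of the scale) for the genes of the surrounding pathway lists in A549, HCC827 and NCI-H358. ABAT is 4.16 higher in mesenchymal A549 cells, CMPK2 is 4.14 lower and NMNAT2 3.39 lower in mesenchymal NCI-H358 cells.

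The plot of the surrounding pathways shows rows of mixed sign in most lists. Since 43.4%, 45.8% and 41.4% of all genes passed in the 3 lines, the counts above are read against these shares, and nothing is called particular to a list. A fall in all 3 lines, as named for CTPS2, SLC29A2, DPYSL2 and AHCY, was shared by 6.14% of all genes. The like share of rises is not given here. Other listed genes also fell in all 3 lines (among them HIBADH, SHMT1 and NT5C2) or rose in all 3 (among them TK2 and RRM2B).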

How the data were processed

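RNA of 3 parental and 3 mesenchymal samples of each line was hybridised to Affymetrix U133 Plus 2.0 arrays. The table the authors deposited gives RMA values on the log2 scale for 19849 genes, 1 probe set per gene. How that probe set was chosen is not given in the sources used here, and RMA compresses differences of dim probe sets, so that low values understate folds. Groups were taken from the labels, each column matched 1 sample title, and 0 columns were left over. The RefSeq table held 19326 of these genes by ID, and 26 symbols written as dates were named by ID. The genome build of the annotation is not given in the sources used here.

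The log2 values were fitted by lmFit and eBayes (limma 3.58.1, R 4.3.3), with 6 groups over 18 arrays and no covariate. The 15 pairwise contrasts and 3 differences of the EMT change between lines were adjusted by Benjamini-Hochberg over all genes, each contrast on its own. Only 3 arrays a group limit the precision, and an exact permutation test of 3 against 3 cannot go below a two-sided p of 0.1. The alternatives were a fit per line, an intensity trend, a robust prior, median centring, Student's t-test per line, a filter on dim probe sets, other thresholds and each array left out. The paper gives Student's t-test as its default but names limma for the arrays. Genes named were all members, list genes past the stricter rule (at most 5 a list), the markers, and the 3 genes closest to each member spanning over 2 on the log2 scale. The other genes named were chosen after their values were seen. The members and lists were chosen with earlier results of these data known.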

Additional observations from a re-analysis of the deposited data

Results flagged for a closer look

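These results are listed because the change between mesenchymal and parental cells differed between 2 lines in the limma fit (adjusted p below 0.05), given as log2 differences of the change. For DPYS, NCI-H358 minus HCC827 was 0.72 (adjusted p = 0.013). UPP1 gave 1.70 for HCC827 minus A549 (adjusted p = 8.13e-10) and -1.71 for NCI-H358 minus HCC827 (adjusted p = 1.16e-09). TYMP gave 0.39 for NCI-H358 minus A549 (adjusted p = 0.00507) and 0.37 for NCI-H358 minus HCC827 (adjusted p = 0.00835). CDA gave -0.49 for HCC827 minus A549 (adjusted p = 0.0481), -1.22 for NCI-H358 minus A549 (adjusted p = 5.44e-05) and -0.73 for NCI-H358 minus HCC827 (adjusted p = 0.0054). NNMT gave -2.09 for HCC827 minus A549 (adjusted p = 3.06e-06) and 1.89 for NCI-H358 minus HCC827 (adjusted p = 1.22e-05). No test for single arrays far from the others was run on these groups of 3.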

How the results depend on the processing

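UPP1 kept its direction and call in each line under every alternative run. NNMT did so too, except in NCI-H358 under Student's t-test (0.92, adjusted p = 0.086). This t-test, which estimates the spread per gene and line, also lost DPYD in HCC827 (-0.74, 0.0736), DPYS in NCI-H358 (0.60, 0.182), TYMP (-0.21, 0.171) and CDA (-0.79, 0.0511) in HCC827. DPYD in A549 (-0.32) passed under a separate fit (0.00788), a trend (0.0366), a dim filter (0.045) and the t-test (0.0184). A separate fit lost TYMP in HCC827 (-0.21, 0.121) and gained CDA in A549 (-0.30, 0.0453). Median centring lost TYMP in A549 (-0.16, 0.0904) and HCC827 (-0.15, 0.126), gained it in NCI-H358 (0.20, 0.0426), and lost the CDA difference HCC827 minus A549 (-0.49, 0.0551), as did a robust prior (-0.49, 0.0501). It reversed, without a call, the differences NCI-H358 minus HCC827 of DPYD (-0.022) and NCI-H358 minus A549 of UPB1 (-0.017). In counts, 5 members passed in A549 with a separate fit, and 2 in HCC827 and 3 in NCI-H358 with the t-test. A fold threshold of 2 in the stricter rule gave 1 member in A549 and 2 in NCI-H358. The causes were not tested.

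With each array left out, the log2 difference ranged from -0.37 to -0.29 for DPYD in A549, from -0.0040 to 0.12, 0.030 to 0.32 and -0.015 to 0.15 for UPB1 in A549, HCC827 and NCI-H358, from -0.27 to -0.20 and -0.28 to -0.13 for TYMP in A549 and HCC827, and from -0.38 to -0.20 for CDA in A549. Differences HCC827 minus A549 ranged from -0.52 to -0.21 for DPYD, -0.40 to -0.28 for DPYS, -0.014 to 0.28 for UPB1, -0.045 to 0.098 for TYMP and -0.64 to -0.36 for CDA. NCI-H358 minus A549 ranged from -0.49 to -0.31 for DPYD, -0.061 to 0.11 for UPB1, -0.061 to 0.054 for UPP1 and -0.43 to 0.027 for NNMT, and NCI-H358 minus HCC827 from -0.20 to 0.11 for DPYD and -0.26 to 0.026 for UPB1. The DPYS difference HCC827 minus A549 passed without parental NCI-H358 replicate 3 (-0.34, adjusted p = 0.0472). The A549 count was 2 to 5, with 5 without parental HCC827 replicate 1. No paired analysis was possible because the labels carry no replicate numbers. The dim filter left 12076 genes and 5 of 7 members, without DPYS and UPB1.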
